A study of Zea mays with 6 samples.

Results

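The genes described here are 60 maize transcripts whose level in the leaf sheath was far lower in GARR2KO plants than in wild-type (WT) plants, without being lost from every GARR2KO library. They were chosen by their values. A gene was taken when its mean over the 6 libraries was at least 1 FPKM (fragments per kilobase of gene, scaled to library size), when its mean log2(FPKM + 1) in GARR2KO minus that in WT was at most -2, and when all 3 GARR2KO values lay below all 3 WT values. Genes at 0 in all 3 GARR2KO libraries were left out, and so were genes in 4 runs of identifier numbers that are dense in strongly changed genes. Of 44146 listed genes, 21531 reached the minimum mean and 94 of these reached the difference (0.437%). All 94 also had separate genotypes, 21 were at 0 throughout GARR2KO and 13 lay in the runs, which left the 60.

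The groups were 3 GARR2KO libraries and 3 WT libraries, each from the sheath of leaf 2 of untreated seedlings that had 3 leaves, grown under normal conditions and sequenced as 150 bp read pairs. GARR2KO lines carry a knockout of the long noncoding RNA GARR2. The sources used here do not say how it was made, how many independent lines were used or how the WT plants are related to them. The replicates are called biological in the study's description, but nothing states which plants or pools they came from.

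Long noncoding RNAs are transcripts that are not translated, and some of them act by binding proteins or chromatin. GARR2 is known as a maize long noncoding RNA that responds to gibberellin, a hormone that drives elongation of stems and leaf sheaths in grasses. Leaf sheaths are the tubular bases of grass leaves, and the rolled sheaths make up most of the upright part of a young seedling. A strong fall in a bulk sample can come from less transcript per cell or from fewer cells that make it, and these cannot be told apart.

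What the 60 genes encode is not reported here. The gene table at hand is built on another assembly and 0 of the 44146 identifiers matched an entry in it, so no symbols, protein products, sequences or coordinates are given, and neither GARR2 nor markers of the sheath were examined. The pair with the largest differences is named by identifier, and the others are called by their rank, where rank 1 is the largest fall on the log2(FPKM + 1) scale. Reads and gene lengths were recovered from the steps between low FPKM values, as described under the processing. The recovered reads over all genes numbered 17723182 to 19181901 per GARR2KO library and 17750299 to 20721778 per WT library. In a gene of 2000 bp, 1 read was worth 0.024 to 0.0283 FPKM.

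Together the 60 genes summed to 434, 405 and 462 FPKM in GARR2KO replicates 1 to 3, against 3444, 3463 and 3415 FPKM in WT replicates 1 to 3. They held 0.0652 to 0.0739% of the summed FPKM of a GARR2KO library and 0.505 to 0.547% of that of a WT library. Every GARR2KO sum was thus far below every WT sum, as the choice of the genes requires. The differences ran from -4.76 to -2.0004 with a median of -2.43, while the median of all tested genes was -0.01. There were 19 genes below -3, 9 between -3 and -2.5 and 32 between -2.5 and -2. All 60 fell past the limma-trend threshold (Benjamini-Hochberg adjusted p under 0.05), which 24.1% of all tested genes passed in this direction and 44.2% in either, and nothing is read from this because the same contrast chose the genes. Rank 59 lost this call when most single libraries were left out, as given with its values. All 3 GARR2KO values lay below all 3 WT values in 29.4% of tested genes.

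**Figure D1:**
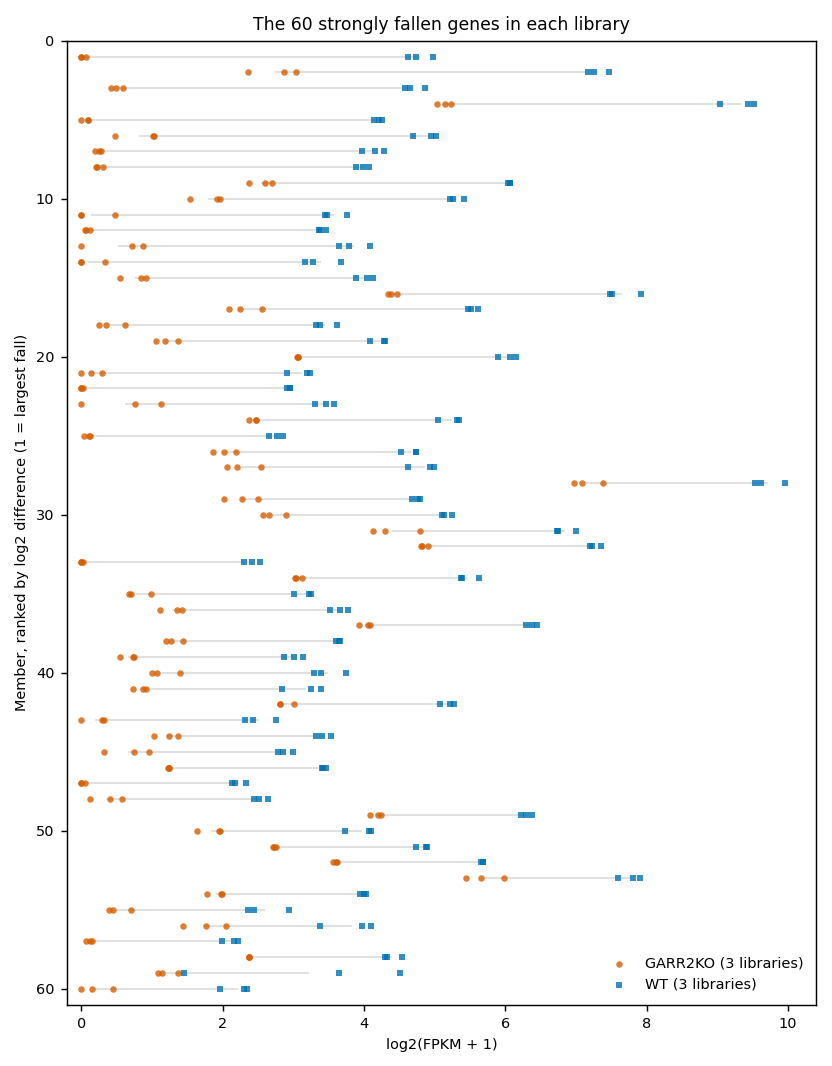
The horizontal axis gives log2(FPKM + 1) and each row is 1 of the 60 genes, ranked from the largest fall at the top. Orange circles are the 3 GARR2KO libraries, blue squares the 3 WT libraries and the grey line joins the means. The genotypes stand apart by at least 3.01-fold in every row but rank 59, where 1 WT library lies beside the GARR2KO values.

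Zm00001d002480 had the largest difference. It was listed at 0, 0 and 0.0447 FPKM in the GARR2KO libraries, against 25.8, 30.4 and 23.6 FPKM in the WT libraries. A single read of it was found in GARR2KO, in replicate 3, and 1779 reads in WT. The mean was 0.0149 ± 0.026 FPKM in GARR2KO and 26.6 ± 3.5 FPKM in WT (SD, n = 3 each), a log2 difference of -4.76 (SE 0.098). By reads scaled to the library totals it was 1796-fold lower in GARR2KO, with a 95% counting interval of 322 to 70995. Such intervals are exact, treat reads as independent molecules and cover counting error only. Each SE of a log2 difference is that of limma-trend, which moderates the spread of a gene by that of all tested genes. It is thus not set by the replicate SDs of the gene alone.

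Zm00001d052122 came next and differed in kind, since it kept a measurable level in all 3 GARR2KO libraries. It had 6.28, 7.25 and 4.11 FPKM in GARR2KO, against 176, 143 and 151 FPKM in WT. The mean was 5.88 ± 1.6 FPKM in GARR2KO and 157 ± 17 FPKM in WT (SD, n = 3 each), a log2 difference of -4.54 (SE 0.163). Its 99 GARR2KO reads and 2634 WT reads gave a level 26.9-fold lower in GARR2KO, with a counting interval of 22.0 to 33.2. The length behind its FPKM was short, at 291 bp.

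The order by log2(FPKM + 1) is not the order by fold, because the added 1 compresses levels below about 1 FPKM. By reads the 60 genes were 4.25- to 1796-fold lower in GARR2KO, with a median of 11.1-fold. They fell into 15 genes at 32-fold or more, 23 genes at 8- to 32-fold and 22 genes at under 8-fold. With a pseudocount of 0.1 the median log2 difference of the same genes was -3.30, and under voom, run on recovered reads, -3.45.

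The 15 genes lowered 32-fold or more all averaged under 1 FPKM in GARR2KO. Their mean levels there ran from 0.0052 to 0.816 FPKM, with a median of 0.0819, against 3.38 to 28.8 FPKM in WT, with a median of 9.59. In 7 of them the fold was 100 or more, and these had 1 to 4 reads over the 3 GARR2KO libraries and 114 to 1779 over the 3 WT libraries. Rank 22 had 0, 0 and 0.0156 FPKM in GARR2KO, against 6.78, 6.76 and 6.56 FPKM in WT, which is 1 read against 1282. It was 1295-fold lower in GARR2KO, with a counting interval of 232 to 51172. Rank 5 had 0.0695, 0 and 0.0732 FPKM in GARR2KO, against 16.7, 18.2 and 17.5 FPKM in WT. Its 2 GARR2KO reads and 712 WT reads put it 359-fold lower in GARR2KO, with an interval of 99.2 to 2974.

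Not all deep falls rested on so few reads. Rank 8 had 0.241, 0.168 and 0.161 FPKM in GARR2KO, against 13.8, 15.9 and 14.9 FPKM in WT. Because its length was 4519 bp, these were 50 reads in GARR2KO and 3843 in WT, and it was 77.6-fold lower in GARR2KO with an interval of 58.7 to 105. Rank 3 had 0.342, 0.406 and 0.510 FPKM in GARR2KO, against 24.1, 22.9 and 28.0 FPKM in WT. It was 59.6-fold lower in GARR2KO, with an interval of 44.0 to 82.9 from 42 and 2480 reads. Both genes were low but detected in each GARR2KO library.

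A value of 0 occurred in 1 or 2 of the GARR2KO libraries for 12 of the 60 genes, 6 with a single 0 and 6 with a pair of them. The 12 had 1 to 14 reads over GARR2KO, against 58 to 1779 over WT. Of the 12, 9 had 3 reads or fewer in GARR2KO, and a count of 0 would itself allow up to 3 reads. These 9 genes are therefore set apart from the 21 strong falls at 0 in every GARR2KO library by a few reads only. The other 48 genes were above 0 in all 3 GARR2KO libraries, with 4 to 3231 reads over them.

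**Figure D2:**
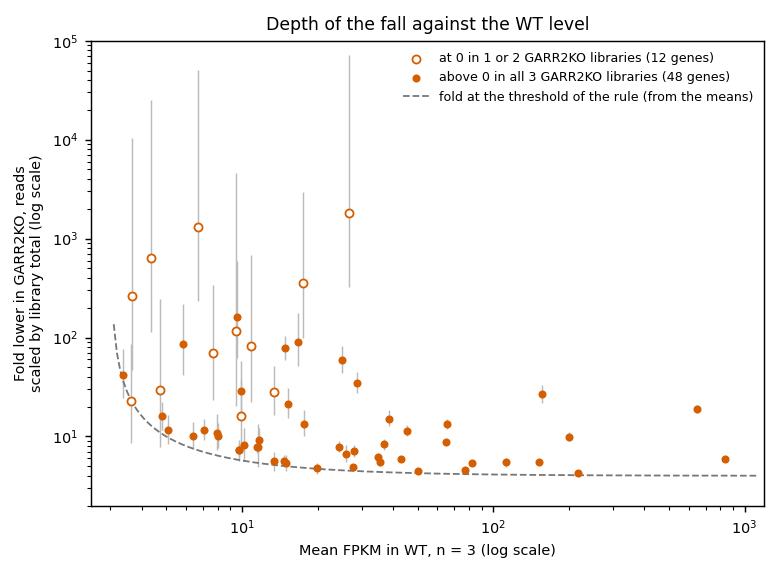
The horizontal axis is the mean FPKM in WT and the vertical axis the fold by which a gene was lower in GARR2KO, from reads scaled by library total, both on log scales. Filled points are the 48 genes above 0 in all 3 GARR2KO libraries, open points the 12 at 0 in 1 or 2 of them, bars are exact 95% counting intervals, and the dashed line is the fold that the rule needs at each WT level, computed from group means. Folds of 100 or more occur only at WT means between 3.64 and 26.6 FPKM.

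The 22 genes lowered less than 8-fold kept a clear level. Their GARR2KO means ran from 1.33 to 142 FPKM, with a median of 4.88, against 9.75 to 839 FPKM in WT, with a median of 27.8. Rank 52 had the smallest moderated limma-trend SE of the 60 differences, 0.045. It had 10.8, 11.2 and 11.2 FPKM in GARR2KO, against 49.6, 50.3 and 50.4 FPKM in WT, and was 4.52-fold lower in GARR2KO, with a counting interval of 4.28 to 4.77 from 1595 and 7138 reads. Rank 34 had the most reads, 3231 in GARR2KO and 18728 in WT, over the longest gene of the set at 7581 bp. It had 7.73, 7.20 and 7.12 FPKM in GARR2KO, against 40.8, 48.2 and 40.3 FPKM in WT, and was 5.85-fold lower in GARR2KO.

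The level in WT and the depth of the fall are linked by the rule, which asks for a larger fold at low levels. The 12 genes with a WT mean of 50 FPKM or more were lowered by a median of 5.70-fold, the 28 genes at 10 to 50 FPKM by 8.28-fold and the 20 genes under 10 FPKM by 25.8-fold. Above 50 FPKM the deepest falls were ranks 2 and 4. Rank 4 was the second most abundant of the 60 genes, with 34.6, 31.8 and 36.4 FPKM in GARR2KO, against 687, 525 and 733 FPKM in WT. It averaged 34.2 ± 2.3 FPKM in GARR2KO and 648 ± 109 FPKM in WT (SD, n = 3 each), and by its 423 and 7916 reads it was 18.9-fold lower in GARR2KO, with an interval of 17.1 to 20.9. Its length was 213 bp, one of the shortest in the set.

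The spread between replicates of a genotype differed among the 60 genes. Among the 48 genes above 0 in all GARR2KO libraries, the highest GARR2KO library was 1.01 to 5.72 times the lowest. The median ratio was 1.46, against 1.13 over all tested genes with such a ratio, and 8 of the 48 reached 2. The widest was rank 48, with 0.328, 0.493 and 0.0862 FPKM in GARR2KO, against 5.27, 4.44 and 4.72 FPKM in WT. The 12 genes at 0 in some GARR2KO libraries have no such ratio. In WT the highest library was 1.02 to 12.5 times the lowest, with a median of 1.21, against a median of 1.15 over all tested genes. In 56 genes this ratio was under 1.5 in WT, and only rank 59 reached 2. The median SD of log2(FPKM + 1) was 0.155 in GARR2KO and 0.133 in WT for the 60 genes, against 0.0815 in GARR2KO and 0.0896 in WT for all tested genes. In GARR2KO the 60 genes had a median mean of 1.32 FPKM and a median of 75 reads, against 8.59 FPKM and 1089 reads for all tested genes. Spread was not compared between genes of equal level. The lowest WT value was a median of 7.69 times the highest GARR2KO value, and at least 10 times in 24 genes.

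The WT libraries of rank 59 were the farthest apart of the 60 genes. It had 1.20, 1.12 and 1.58 FPKM in GARR2KO, against 21.7, 1.74 and 11.5 FPKM in WT. Its WT replicate 2 stood 1.10-fold above the highest GARR2KO value, while the other WT libraries were far above, and its log2 difference of -2.01 had an SE of 0.640. Without WT replicate 2 the difference was -2.88, and without WT replicate 1 it was -1.36. Rank 59 passed the limma-trend threshold with all 6 libraries and without WT replicate 2. It did not pass when any other library was left out (limma-trend adjusted p of 0.0653 to 0.0983) or with no minimum mean (limma-trend adjusted p of 0.0699). The size of the fall in rank 59 and its call thus depend on which libraries are counted.

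WT replicate 2 also lay apart from the other WT libraries over all tested genes, at 17.8 on the second principal component of log2(FPKM + 1), against -6.94 and -11.5 for WT replicates 1 and 3. That component held 5.73% of the variance. Among the 60 genes WT replicate 2 was the lowest WT library in 27 (45.0%) and the highest in 25 (41.7%), against 38.7% and 34.9% of all tested genes. Without it the rule found 61 genes, of which 56 were among the 60.

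The threshold of -2 cut through a continuous range. Just inside it were rank 59 and rank 60, at -2.01 and -2.0004. Rank 60 had 0.115, 0 and 0.364 FPKM in GARR2KO, against 3.92, 4.08 and 2.90 FPKM in WT. Just outside it, at -1.99, was a gene with 1.91, 1.84 and 1.91 FPKM in GARR2KO, against 10.2, 11.5 and 9.77 FPKM in WT. Next to that, also at -1.99, was a gene with 15.3, 13.6 and 19.8 FPKM in GARR2KO, against 66.8, 61.8 and 71.8 FPKM in WT. The last gene was lower by about as much in FPKM as several of the 60.

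The rule set no limit on gene length, but length enters it through FPKM, which is scaled per kilobase. The lengths recovered for the 60 genes ran from 207 to 7581 bp with a median of 1068 bp, against 1793 bp over all tested genes. Lengths under 500 bp were found for 14 of the 60 (23.3%), against 5.63% of all tested genes, and lengths over 3000 bp for 4 (6.67%), against 25.7%. The 52 genes that rose as strongly by the mirrored rule were also short, with a median of 1220 bp and 10 of 52 (19.2%) under 500 bp. The 33 genes at 0 in all GARR2KO libraries and at 1 FPKM or more in all WT libraries had a median of 795 bp, with 10 of 33 (30.3%) under 500 bp. The 13 strong falls inside the runs had a median of 1051 bp, but 0 of 13 were under 500 bp. Medians were thus below that of all tested genes in each of these sets, while the share under 500 bp was not higher in the falls inside the runs. Lengths were multiples of 3 in 37 of the 60 genes (61.7%) and in 45.3% of all tested genes. Under 500 bp they were so in 12 of 14 and in 85.7% of tested genes, so most of these short lengths are likely to be coding lengths. A short gene has few reads at a given FPKM, and no test of length was made.

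**Figure D3:**
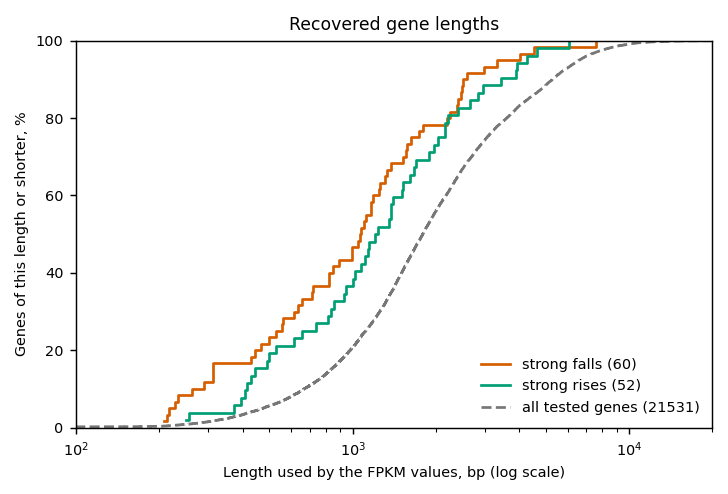
The horizontal axis is the recovered gene length in bp on a log scale and the vertical axis the percentage of genes of that length or shorter. Orange is the 60 strong falls, green the 52 strong rises and the grey dashed line all 21531 tested genes. Both strongly changed sets lie to the left of all tested genes, with medians of 1068, 1220 and 1793 bp.

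A shared length picked out 3 of the 60 genes. The recovered lengths took 58 distinct values, and the single repeated value, 312 bp, belonged to ranks 16, 28 and 31. Over all tested genes 20 had this length. These 3 genes lie within identifier numbers 24893 to 24900, so they are also among the closest in number. They were singled out after their values were seen. In this stretch 7 identifiers were listed and 4 were tested. Of these 4, 3 had been chosen for their fall. The other tested gene also fell 2-fold or more past the limma-trend threshold, as did 2.01% of all tested genes, but it is 1 gene only.

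Rank 28 was the most abundant of the 60 genes, with 134, 124 and 166 FPKM in GARR2KO, against 782, 992 and 742 FPKM in WT. It averaged 142 ± 22 FPKM in GARR2KO and 839 ± 134 FPKM in WT (SD, n = 3 each) and was 5.92-fold lower in GARR2KO, with a counting interval of 5.68 to 6.18. Rank 16 had 19.3, 19.8 and 21.2 FPKM in GARR2KO, against 181, 242 and 178 FPKM in WT, and was 9.98-fold lower in GARR2KO, with an interval of 8.95 to 11.1. Rank 31 had 16.5, 18.7 and 26.7 FPKM in GARR2KO, against 106, 126 and 105 FPKM in WT, and was 5.47-fold lower in GARR2KO, with an interval of 4.89 to 6.13.

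Across replicates the 3 genes had the same order at the top, with GARR2KO replicate 3 highest among GARR2KO libraries and WT replicate 2 highest among WT libraries in each. The counting intervals of ranks 28 and 31 overlap, while that of rank 16 lies above both. They leave out the spread between replicates, so no order of the 3 falls is read from them. The other tested gene of the stretch had 13.5, 11.7 and 17.6 FPKM in GARR2KO, against 32.2, 33.8 and 36.3 FPKM in WT, a log2 difference of -1.21. The 3 genes summed to 170, 163 and 214 FPKM in GARR2KO, against 1070, 1361 and 1026 FPKM in WT, which was 39.3 to 46.2% of the sum over the 60 genes in GARR2KO libraries and 30.04 to 39.3% in WT libraries. If genes of equal length and adjacent number are near-identical copies, reads can be shared between them, and their separate levels are uncertain. Their sequences were not examined here.

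**Figure D4:**
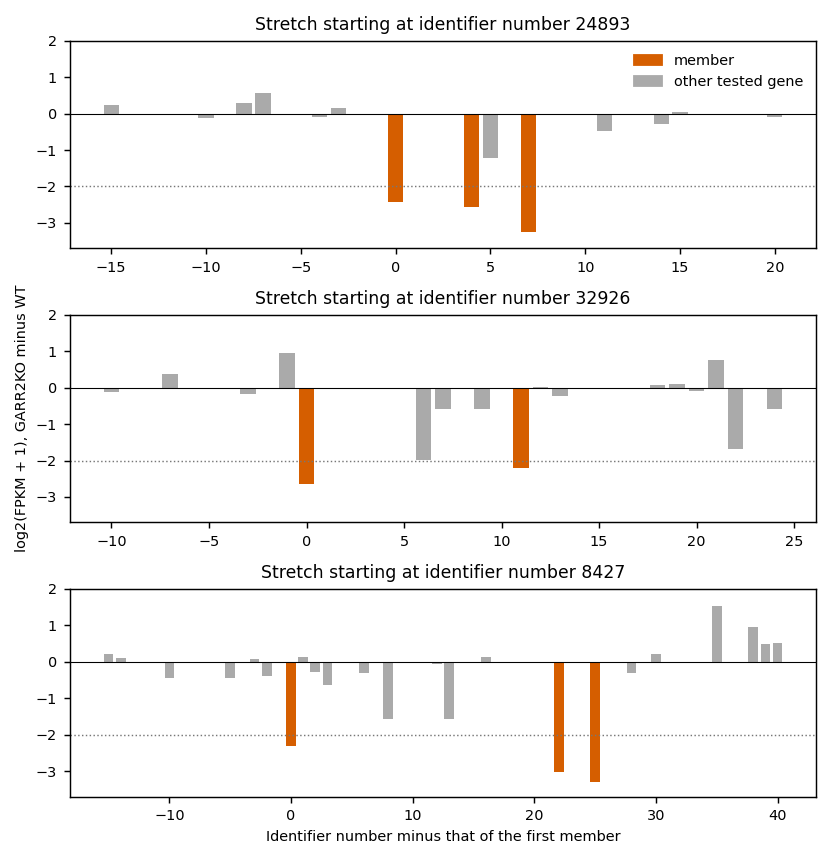
Bars give the log2(FPKM + 1) difference, GARR2KO minus WT, of every tested gene in and within 15 identifier numbers of 3 stretches, against its number minus that of the first of the 60 genes in the stretch. Among stretches with at least 3 falls of 2-fold or more, those with the highest share of such falls are shown. The longest stretches were more mixed, with 7 falls and 5 rises among 81 tested genes at 17240 to 17417. At 48526 to 48680 there were 8 falls and 3 rises among 74. Orange bars are genes of the 60, grey bars other tested genes, and the dotted line is the threshold of -2. In the top panel 4 adjacent tested genes fall, of which 3 were chosen for their fall, while the genes on either side lie between -0.46 and 0.58.

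Identifier numbers are used here as an order only, since the files carry no coordinates and it was not tested whether adjacent numbers mean adjacent genes. Of the 60 genes, 29 (48.3%) had another of the 60 within 100 numbers, in 11 stretches of 2 to 4 genes. Of the 20872 other tested genes outside the runs, 17.3% had one of the 60 within 100 numbers. The median gap between successive genes of the 60 was 403 numbers, the smallest was 2 and the largest 5330. The gap was 10 numbers or less in 5 cases. No chance test was made of this spacing, and 4 runs dense in strongly changed genes had already been left out by the rule.

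Close pairs did not need to resemble each other in level. The smallest gap was between rank 22 and rank 46, at numbers 8632 and 8634. Rank 22 was at 1 read in GARR2KO, as given above, while rank 46 kept 1.34, 1.36 and 1.36 FPKM in GARR2KO, against 9.73, 10.002 and 9.61 FPKM in WT, and was 7.24-fold lower in GARR2KO. Their lengths were 3333 and 996 bp. The pair at numbers 32926 and 32937 differed likewise. Rank 26 had 3.08, 3.57 and 2.65 FPKM in GARR2KO, against 25.7, 21.9 and 25.7 FPKM in WT, and rank 47 had 0, 0.0435 and 0 FPKM in GARR2KO, against 4.01, 3.41 and 3.51 FPKM in WT. Between them lay the gene just outside the threshold at 66.8 FPKM in WT replicate 1, which also fell 2-fold or more. Of the 6 tested genes from 32926 to 32937 only these 3 fell as much, ranks 26 and 47 having been chosen for it. The remaining genes had log2 differences of -0.02, -0.60 and -0.59.

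The stretch from 8427 to 8452 held 3 of the 60 genes among 12 tested. Rank 18 had 0.534, 0.195 and 0.281 FPKM in GARR2KO, against 9.43, 11.3 and 8.98 FPKM in WT. Rank 13 had 0, 0.652 and 0.836 FPKM in GARR2KO, against 16.0, 11.5 and 12.9 FPKM in WT. They lie 3 numbers apart and were 28.9- and 27.9-fold lower in GARR2KO, with counting intervals of 15.9 to 58.5 and 16.4 to 51.5. Of the 12 tested genes of this stretch, 5 fell and 0 rose by 2-fold or more, and 3 of the 5 had been chosen for their fall. Over all tested genes 2.01% fell and 2.01% rose by as much. The ends of a stretch are set by genes of the 60, and just beyond this one, at number 8462, a tested gene rose by 1.53. The stretch lies before the first run left out by the rule. Within 500 numbers of that run lay 7 of the 60 genes, against 1 for the last run and 0 for the other two. In all, 8 of the 60 (13.3%) and 6.54% of tested genes outside the runs were that close to a run.

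**Figure D5:**
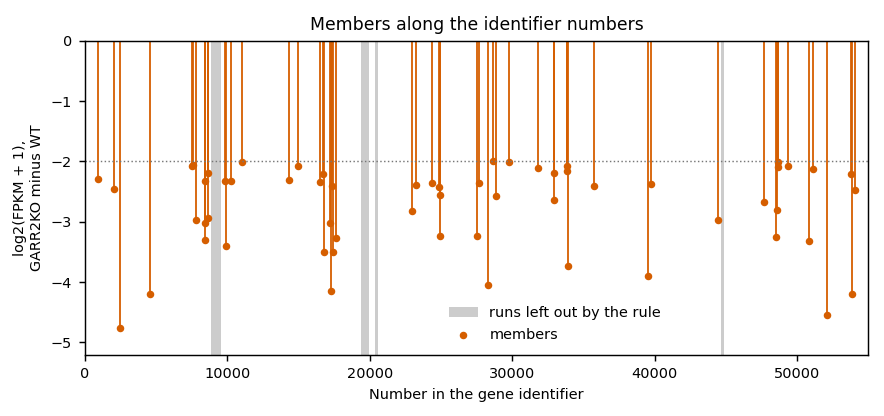
Each orange line is 1 of the 60 genes, placed by the number in its identifier on the horizontal axis, and reaches down to its log2(FPKM + 1) difference, GARR2KO minus WT. Grey bands are the 4 runs left out by the rule and the dotted line is the threshold of -2. The genes are spread over the whole range with clusters, among them 3 genes at 8427 to 8452, 4 at 17240 to 17417, 3 at 24893 to 24900 and 4 at 48526 to 48680.

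Genes next to the 60 in number changed in both directions. Of 113 tested genes directly beside one of them, 9 fell (7.96%) and 7 rose (6.19%) by 2-fold or more past the limma-trend threshold. Over the 20872 other tested genes outside the runs, 1.51% fell and 1.83% rose by as much, and over all tested genes 2.01% did each. Within 5 tested genes on either side, 22 of 538 fell (4.09%) and 19 rose (3.53%). The median difference of the 113 direct neighbours was -0.06, so most of them did not share the strong fall. Of the 60 genes, 17 (28.3%) had a strong rise within 100 numbers, against 17.7% of the other tested genes, and 8 (13.3%) had a gene silent in all GARR2KO libraries, against 7.89%. Rises and falls of this size thus occurred beside each other, and no test of their placement was made.

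The 52 strong rises outside the runs gave a mirror image in level. Their median mean was 13.3 FPKM in GARR2KO and 0.798 FPKM in WT, while that of the 60 falls was 1.32 FPKM in GARR2KO and 15.1 FPKM in WT. The median of their differences was 2.57, against -2.43 for the falls. The 13 strong falls inside the runs had a median mean of 2.78 FPKM in GARR2KO and 20.5 FPKM in WT and a median difference of -2.92. None of these contrasts between sets was tested, since the same values chose them. Each genotype may have had its own growth, harvest or library batch, or its own parental background, and the design does not cross these with the knockout, so they cannot be told apart from it.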

How the data were processed

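Sheath RNA of 3 GARR2KO and 3 WT libraries was analysed from 1 deposited table per library. The authors' values were taken as FPKM because the submitters' processing notes name TopHat2, Cufflinks, Cuffdiff and the build B73 RefGen_v4, without versions. RPKM would look the same. Annotation release and filters were not given in the sources used here. Within a gene, low FPKM differ by whole multiples of what 1 read is worth. From these steps, relative depth, reads and lengths were recovered: all 6 values came out whole, within 0.002 reads, for 31076 of 31076 genes above 0 (trivial for genes seen in few libraries), and lengths within 0.02 bp for 99.2% of genes over 30 reads, against 49.7% with the step doubled. On simulated data 98.8% of 5853 genes came back exactly. It is not known whether a counted unit is a read or a pair.

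Genotype was fitted on log2(FPKM + 1) by limma-trend, from limma 3.58.1 under R 4.3.3, for all 21531 genes averaging 1 FPKM or more. In libraries simulated for GARR2KO against WT, with 50 genes per fold size among 21410 fitted, it called 92% of 4-fold falls, 76% of 2-fold falls and 5 of 21217 unchanged genes. The simulation averaged the spread over genes of similar level and changed few genes. In the data 44.2% of tested genes were called, so these rates need not hold there. Fold changes on the log2(FPKM + 1) scale understate changes of low genes. Folds by reads are scaled by the library totals that the FPKM values imply, while voom used the sums of recovered reads. These totals are not those sums: for WT replicate 3 the total was 17656864 and the recovered reads 17750299. For GARR2KO replicate 1 they were 20230916 and 19181901. P-values set the genotype difference against the spread between these libraries, moderated over the tested genes, and cover no other source of variation. The members, lists and tests were chosen with earlier results of these data known, and the gene stretches after their values were seen. The naming rule allowed the 2 largest falls where no identifier had a name. Planned product classes and tissue markers had 0 matched genes and were not counted.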

Additional observations from a re-analysis of the deposited data

How the results depend on the processing

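The number of genes meeting the rule was 60. It became 107 with a pseudocount of 0.1, 111 with a difference of at most -1.5 and 19 with one of at most -3, and stayed between 44 (minimum mean of 5 FPKM) and 73 (the 4 runs kept) under the other settings. Leaving out a library in turn gave 56 to 61 genes, of which 55 to 58 were among the 60. Not only genes near the threshold were lost. Ranks 1, 11, 22 and 33 no longer met the rule without GARR2KO replicate 3, nor ranks 14 and 47 without GARR2KO replicate 2. These genes were at 0 in the remaining GARR2KO libraries. The 9517 genes past the limma-trend threshold, 4322 up and 5195 down, became 7318 (minimum mean of 5 FPKM) to 10612 (voom on recovered reads, 5855 up and 4757 down). Leaving out a library gave 7943 to 8847. Of the 60, all passed the threshold under the other settings that tested them, except rank 59 with no minimum mean and when any library but WT replicate 2 was left out (limma-trend adjusted p of 0.0653 to 0.0983). Quantile normalization gave 4938 up and 4865 down, so the excess of falls over rises does not hold under that scaling or with voom. Between libraries of equal replicate number, the deviations from the group means had correlations of -0.05, -0.05 and 0.05. Unequal numbers were not correlated for comparison, so whether equal numbers mark plants grown or harvested together cannot be decided from these values. A replicate block in the fit gave 8963 genes. The log2 difference of Zm00001d002480 was -4.76, -7.88 with a pseudocount of 0.1 and -9.64 with voom, and moved by less than the replicate SD of log2(FPKM + 1), pooled over the genotypes, in the other alternatives. That of Zm00001d052122 moved by less than its own pooled SD in all of them, from -4.54 to between -4.75 (pseudocount 0.1) and -4.34 (without GARR2KO replicate 3), which is more than its SE of 0.163. Windows of 50 and 200 identifier numbers, added after the data had been seen, gave 20 and 35 genes with another of the 60 close by, in place of 29. Depth limits genes with 3 GARR2KO reads or fewer, whose folds are known only within wide intervals.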
